A study of Rattus norvegicus with 6 samples.

Results

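The genes described here are those of the transforming growth factor beta (TGF-beta) and bone morphogenetic protein (BMP) pathway, taken by symbol: the TGF-beta, activin, BMP and GDF ligands, their receptors, the Smad genes, the Id genes, the noggin, gremlin, chordin and follistatin families and the latent TGF-beta binding proteins. The pattern matched 64 of the 18625 named genes. Smad4, Bmpr1a and Bmp7 were not among the 64, so nothing is said of them here. RNA sequencing had measured freshly isolated rat islets, the clusters of endocrine cells in the pancreas, in 3 postnatal and 3 fetal libraries. All postnatal titles say 2 weeks of age, whereas the age field says week 2 for replicate 1, week 3 for replicate 2 and week 4 for replicate 3. The fetal libraries come from embryonic day 19. Neither strain nor treatment is named. The labels do not tie replicates to separate animals or litters, so the spread behind each p-value is that of these libraries and could be technical. The question is which parts of the pathway differ between islets after birth and late fetal islets.

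Ligands of this family are secreted as dimers with a pro-domain, and TGF-beta stays latent in the matrix until it is released. A ligand brings type II and type I receptor kinases together, and the type I receptor phosphorylates a Smad protein that then acts in the nucleus. TGF-beta and activin use Smad2 and Smad3, whereas BMPs use Smad1, Smad5 and Smad9. Smad6 and Smad7 block the receptors, and the Id genes are well-known BMP targets. In the developing pancreas the pathway is known to act on endocrine differentiation and on the surrounding mesenchyme, whose cells are also a main source of its matrix proteins.

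Values are scaled CPM: reads relative to a library size that the authors adjusted between libraries. The libraries held 28.2 to 29.5 M reads in the postnatal and 26.1 to 37.8 M in the fetal group, and 3 reads were worth 0.102 to 0.152 scaled CPM in the postnatal and 0.0726 to 0.0925 in the fetal group. All 10 endocrine markers were detected and were higher in the postnatal libraries, at 4.20% to 11.4% of the reads against 0.240% to 0.661% in the fetal ones. The 12 acinar markers, of which 9 rose, took 17.5% to 34.7% of the reads in the postnatal and 5.79% to 7.76% in the fetal libraries. All 10 mesenchymal markers rose (median log2 fold change 2.22), with a summed level of 7117 to 12305 in the postnatal and 1560 to 2366 in the fetal libraries. All 9 endothelial markers rose as well (median 1.58), with sums of 744 to 1132 in the postnatal and 251 to 402 in the fetal libraries. No endocrine, acinar, mesenchymal or endothelial marker was at 0 in any library. In such bulk samples, more cells of a type and more RNA per cell cannot be told apart. Other lists went the other way or were mixed. All 6 erythroid markers fell (median -2.31), with 0.0663% to 0.159% of the reads in the postnatal and 0.322% to 1.14% in the fetal libraries. Of 7 ductal markers, Krt19 and Muc1 fell and none rose, and 2 of 5 hepatocyte markers tested fell. Of 5 mesothelial markers 4 rose, of 9 macrophage markers 4 rose, and of 6 Schwann and glial markers 3 rose and 2 fell. The part of any of these markers in the results below was not tested.

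Of the 64 genes, 51 reached 1 scaled CPM in 3 or more libraries and were tested with limma on log2(value + 1), with Benjamini-Hochberg adjustment over all 12926 genes tested. At an adjusted p under 0.05, 26 had a higher postnatal level, 5 a lower one, and 20 did not pass. Of all genes tested, 30% were higher and 33.1% lower, or 63.1% called in all. Of the 51 pathway genes tested, 51.0% were higher and 9.80% lower. Their median log2 fold change was 0.54, against -0.03 over all genes tested. The 51 include Bmp1 and Bmp2k, which are named after BMPs but encode no ligand of the family. Bmp2k is among the 26, and its value of 0.54 is the median. Of the 51, 18 were called higher and 4 lower by at least 2-fold, and of all genes tested 14.8% and 12.1% were. Among called genes, 18 of the 26 higher and 4 of the 5 lower reached 2-fold. Over all genes, 1916 of 3874 and 1558 of 4278 did. Grem1 reached 1 scaled CPM in no fetal library and passed the filter through the postnatal libraries alone. Ltbp2, Bmp5, Fst, Fstl5, Inhba, Bmp2 and Bmpr1b reached it in 1 or 2 fetal libraries, so they too needed their postnatal libraries to pass. Of these, Inhba, Bmp2 and Bmpr1b were not called. A log2 fold change of low values depends on the added 1, and 8 of the 51 moved by over 1.5 times with a pseudocount of 0.1 or 5. Without a filter all 64 entered the test, and 28 were higher and 5 lower. The split depended on how libraries were scaled. With each library scaled to its plain read total, the median of all genes moved to -0.36, 18 pathway genes were higher and 5 lower, and 25.9% of all calls were higher, against 47.5% as deposited. With the 20 highest genes left out of the scaling, the median of all genes was 0.20, the counts were 30 and 4, and 61.2% of all calls were higher.

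**Figure D1:**
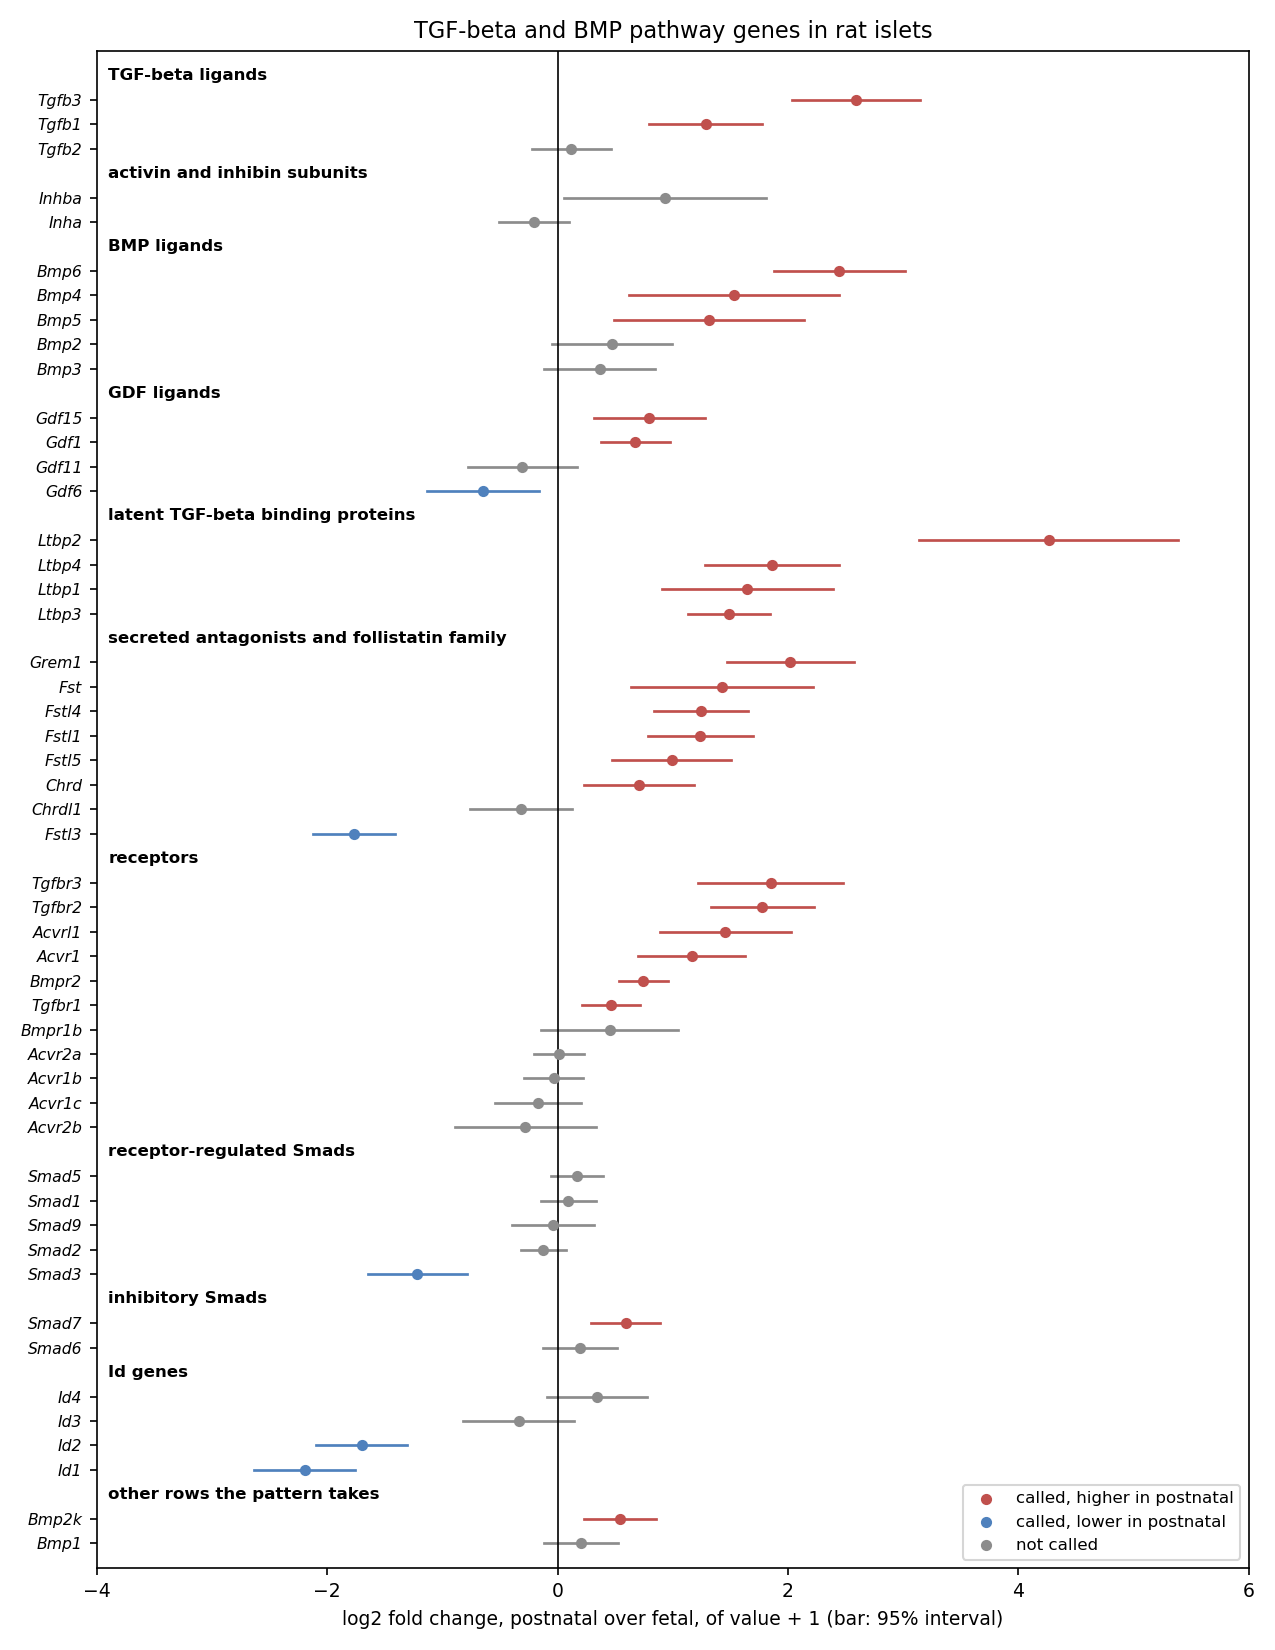
Log2 fold change of value + 1, postnatal over fetal, for all but 1 of the 51 genes tested, grouped by role, with 95% intervals from limma (x axis); red points were called higher, blue points lower and grey points were not called. Ltbp2 lies farthest to the right at 4.26 and Id1 farthest to the left at -2.19.

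The Id genes, the best-known BMP targets among these genes, included a pair that fell and a pair that was not called, and the promoters of all 4 are printed for comparison. Each line gives the 250 bases before the annotated start, 5′ to 3′ on the gene's strand, from RefSeq (build GRCr8); the windows lie at chr3:161671314-161671563 on the plus strand, chr6:47470996-47471245 on the minus strand, chr5:153656041-153656290 on the plus strand and chr17:16598294-16598543 on the minus strand. Capitals mark CCAAT (or ATTGG, the same box on the other strand) and TATAAA.
Id1: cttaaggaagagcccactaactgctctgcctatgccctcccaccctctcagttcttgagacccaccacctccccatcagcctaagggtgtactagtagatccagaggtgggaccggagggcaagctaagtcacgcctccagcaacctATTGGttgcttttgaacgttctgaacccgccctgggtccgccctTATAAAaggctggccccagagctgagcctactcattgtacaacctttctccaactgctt
Id2: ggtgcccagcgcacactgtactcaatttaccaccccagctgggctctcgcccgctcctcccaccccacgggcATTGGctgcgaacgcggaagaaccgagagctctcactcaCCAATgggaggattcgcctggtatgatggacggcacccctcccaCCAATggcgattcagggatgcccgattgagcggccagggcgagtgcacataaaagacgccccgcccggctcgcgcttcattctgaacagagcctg
Id3: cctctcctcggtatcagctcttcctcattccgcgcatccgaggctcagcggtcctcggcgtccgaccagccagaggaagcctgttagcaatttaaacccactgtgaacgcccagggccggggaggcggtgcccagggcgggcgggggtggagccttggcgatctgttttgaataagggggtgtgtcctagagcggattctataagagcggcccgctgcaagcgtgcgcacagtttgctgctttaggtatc
Id4: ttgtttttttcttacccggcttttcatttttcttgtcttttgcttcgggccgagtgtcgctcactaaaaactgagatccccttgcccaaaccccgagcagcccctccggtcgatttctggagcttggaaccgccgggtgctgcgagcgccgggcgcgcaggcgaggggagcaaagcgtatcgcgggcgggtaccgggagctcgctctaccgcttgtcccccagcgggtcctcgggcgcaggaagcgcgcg
CCAAT, searched on both strands, occurred once in the Id1 window and 3 times in the Id2 window, and in neither of the others. It is present in 34% of all 33469 RefSeq windows of this length. Over the pathway genes with a window it was in 19 of 51: 8 of the 21 that rose, 2 of the 4 that fell, 4 of the 16 not called and 5 of the 10 not tested. TATAAA occurred in the Id1 window only, and in 12.9% of all windows. GGCGCC and CAGAC, short motifs that Smad proteins bind, were in none of the 4 windows. They are in 8.69% and 42.9% of all windows. The motifs were searched on both strands, and only within these 250 bases, so sites farther from the start are not covered. The table had no window for the other 13 of the 64 genes.

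Id1 and Id2 fell after birth, whereas Id3 and Id4 did not pass. Id proteins are helix-loop-helix factors without a DNA-binding region, which hold basic helix-loop-helix factors inactive. Id1 reached 25.7, 37.7 and 36.9 scaled CPM in the postnatal and 139, 137 and 193 in the fetal libraries (in all such lists in the order of replicates 1, 2 and 3). The postnatal values all lay below the fetal ones (log2 fold change -2.19 ± 0.19 SE, the scale of every change given below; limma adjusted p = 7.93e-05). Id2 stood at 33.0, 43.4 and 41.1 in the postnatal and 116, 112 and 163 in the fetal libraries (-1.70 ± 0.17; limma adjusted p = 1.47e-04). Both falls were called under all 20 alternatives. Id3 stood at 49.4, 81.4 and 84.4 in the postnatal and 84.3, 81.1 and 101 in the fetal libraries, so the groups overlapped (-0.34, 95% interval -0.82 to 0.14). Id4 stood at 23.7, 36.5 and 37.0 against 23.5, 22.9 and 28.5 in the fetal libraries (0.34, 95% interval -0.09 to 0.77). Without postnatal replicate 1, Id4 was called higher (0.55; limma adjusted p = 0.00664), and also when the 20 highest genes were left out of the scaling. A ratio of 2 genes within a library does not depend on the scaling. Id1 over Id3 was 0.437 to 0.520 in the postnatal and 1.65 to 1.91 in the fetal libraries, and Id2 over Id4 was 1.11 to 1.39 and 4.90 to 5.73. The size of such a ratio also reflects transcript length, so only its difference between groups is read.

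Among the Smad genes, Smad3 fell and its partner Smad2 did not pass. Smad3 had levels of 59.0, 46.7 and 34.7 in the postnatal and 105, 99.5 and 119 in the fetal libraries (-1.22 ± 0.18; limma adjusted p = 8.76e-04). The lowest fetal value was well above the highest postnatal one. Smad2 stood at 47.2, 49.1 and 50.4 in the postnatal and 52.0, 54.7 and 53.6 in the fetal libraries, so its groups did not overlap either, by a small margin, and the 95% interval of its log2 fold change was -0.32 to 0.07. The ratio of Smad3 over Smad2 was 1.25, 0.951 and 0.687 in postnatal replicates 1, 2 and 3, and 2.02, 1.82 and 2.23 in the fetal libraries. Each labelled week of age has a single library, so no course over the weeks is read from this.

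The BMP-regulated Smads were not called. Smad1 (0.09, 95% interval -0.14 to 0.33), Smad5 (0.17, -0.06 to 0.40) and Smad9 (-0.04, -0.39 to 0.31) had log2 fold changes with these 95% intervals. Smad1 and Smad5 were called higher when the 20 highest genes were left out of the scaling. Of the inhibitory Smads, Smad7, which blocks TGF-beta and BMP receptors, stood at 22.7, 28.7 and 27.5 in the postnatal and 17.9, 15.4 and 18.0 in the fetal libraries. The groups did not overlap (0.59 ± 0.13; limma adjusted p = 0.00490), but the call ended with libraries scaled to plain read totals (0.25; limma adjusted p = 0.438). Smad6, which acts mainly on BMP receptors, stood at 10.5, 9.67 and 8.54 in the postnatal and 9.18, 7.89 and 7.64 in the fetal libraries, and did not pass (0.19, 95% interval -0.12 to 0.51). It was called higher when the 20 highest genes were left out of the scaling (0.41; limma adjusted p = 0.0465).

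**Figure D2:**
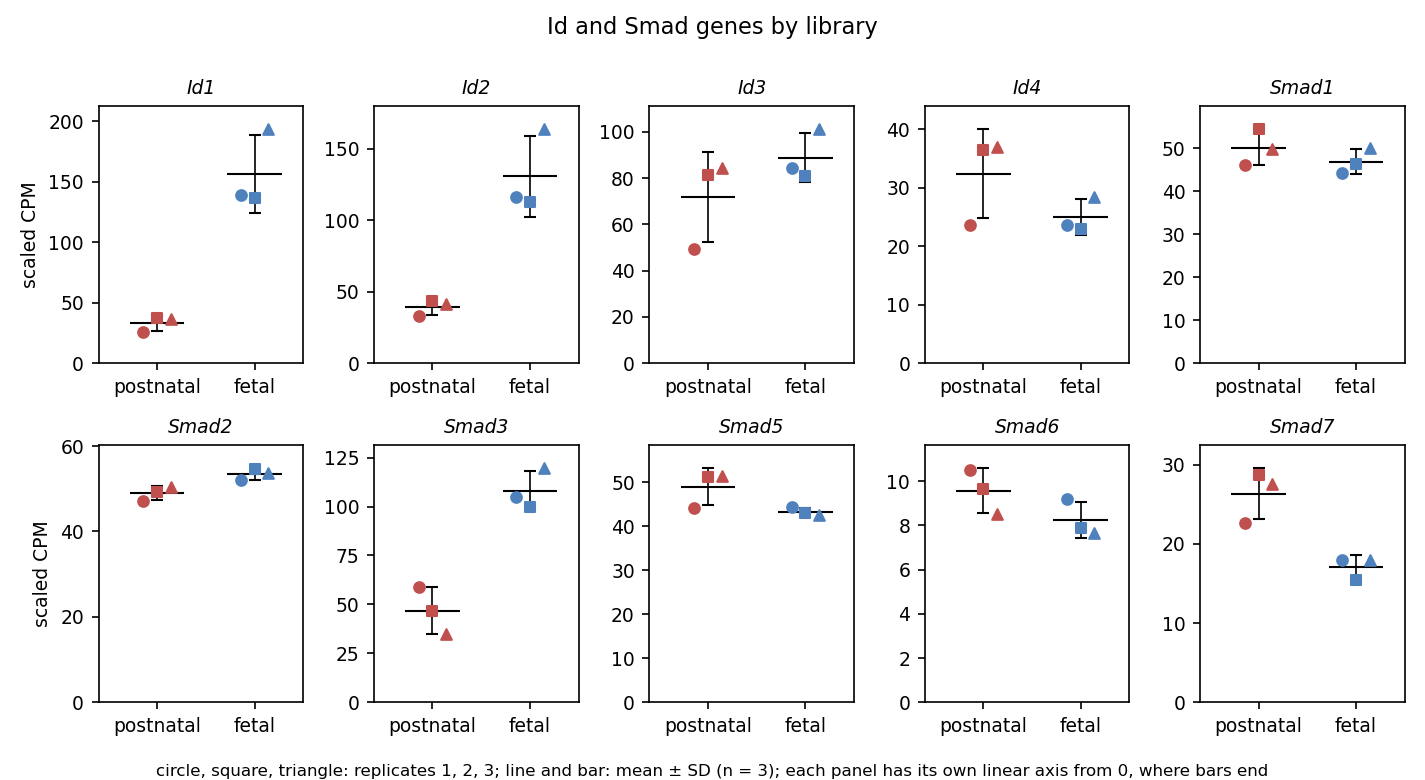
Scaled CPM of the Id genes and 6 Smad genes in each library (points), with the mean and SD of 3 libraries (lines and bars), postnatal left and fetal right; axes are linear and start at 0. Id1, Id2, Smad3 and Smad2 were lower in all postnatal libraries than in any fetal one, while the groups of Id3 and Id4 overlap.

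Among the TGF-beta ligands, Tgfb3 and Tgfb1 rose and Tgfb2 did not pass. Tgfb3 stood at 38.8, 59.4 and 55.3 in the postnatal and 8.93, 9.17 and 5.12 in the fetal libraries (2.59 ± 0.24; limma adjusted p = 1.02e-04). Tgfb1 stood at 4.40, 7.36 and 5.46 in the postnatal and 1.60, 2.30 and 1.36 in the fetal libraries (1.29 ± 0.21; limma adjusted p = 0.00128). In both genes the groups were apart, and postnatal replicate 1 was the lowest of its group. Tgfb2 stood at 16.4, 17.2 and 18.2 in the postnatal and 18.7, 16.2 and 12.9 in the fetal libraries, with a 95% interval of -0.22 to 0.46. Within libraries, Tgfb3 over Tgfb2 was 2.37 to 3.45 in the postnatal and 0.395 to 0.565 in the fetal group.

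All 4 latent TGF-beta binding protein genes rose, under every one of the 20 alternatives. Ltbp1, Ltbp3 and Ltbp4 encode proteins that bind latent TGF-beta and anchor it in the matrix; the Ltbp2 protein does not bind TGF-beta and sits on fibrillin microfibrils. Ltbp2 showed the largest change of the 51 genes tested. It stood at 29.2, 66.8 and 72.2 in the postnatal and 1.07, 4.57 and 0.832 in the fetal libraries (4.26 ± 0.48; limma adjusted p = 2.49e-04), with 4.92 and 3.04 under pseudocounts of 0.1 and 5. Ltbp4 stood at 121, 199 and 150.2 in the postnatal and 51.4, 47.9 and 29.0 in the fetal libraries (1.86 ± 0.25; limma adjusted p = 4.94e-04). Ltbp1 stood at 65.7, 109 and 102 in the postnatal and 40.9, 31.7 and 16.9 in the fetal libraries (1.65 ± 0.32; limma adjusted p = 0.00284). Ltbp3 rose by 1.49 ± 0.15; it was the only one of the 4 that was not lowest in postnatal replicate 1. For the other 3, postnatal replicate 1 was the lowest of its group, as it was for 6 of the 10 summed marker lists.

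All 3 TGF-beta receptor genes rose, and none of the 4 activin receptor genes was called. Tgfbr2, the type II receptor of TGF-beta, stood at 62.7, 105 and 84.0 in the postnatal and 22.1, 27.2 and 20.9 in the fetal libraries (1.78 ± 0.19; limma adjusted p = 2.06e-04). Tgfbr3, the co-receptor betaglycan, stood at 32.3, 65.9 and 46.3 in the postnatal and 13.7, 14.5 and 8.94 in the fetal libraries (1.85 ± 0.27; limma adjusted p = 7.52e-04). Acvrl1, a type I receptor found mainly on endothelium, stood at 36.1, 63.2 and 54.0 in the postnatal and 15.7, 23.6 and 14.4 in the fetal libraries (1.46 ± 0.24; limma adjusted p = 0.00138). In all 3 genes the groups were apart and postnatal replicate 2 was highest of its group, as it was for 5 of the 10 summed marker lists, mesenchymal and endothelial among them. The type I BMP receptor gene Acvr1 rose by 1.16 ± 0.20 and the type II BMP receptor gene Bmpr2 by 0.74 ± 0.09. Tgfbr1, the type I receptor of TGF-beta, rose by 0.46 ± 0.11. The calls of Bmpr2 and Tgfbr1 ended with libraries scaled to plain read totals. Among the activin receptor genes, Acvr2a gave 0.01 (95% interval -0.20 to 0.23) and Acvr1b -0.03 (-0.29 to 0.22). Acvr1c, the type I receptor known from islet and fat cells, gave -0.17 (-0.54 to 0.20) and Acvr2b -0.28 (-0.89 to 0.33). Acvr2b was called lower without both fetal replicate 2 and postnatal replicate 1 (-0.66; limma adjusted p = 0.0343). The type I BMP receptor gene Bmpr1b did not pass (0.45, -0.14 to 1.04), though it was called higher without fetal replicate 1 (0.71; limma adjusted p = 0.0227).

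**Figure D3:**
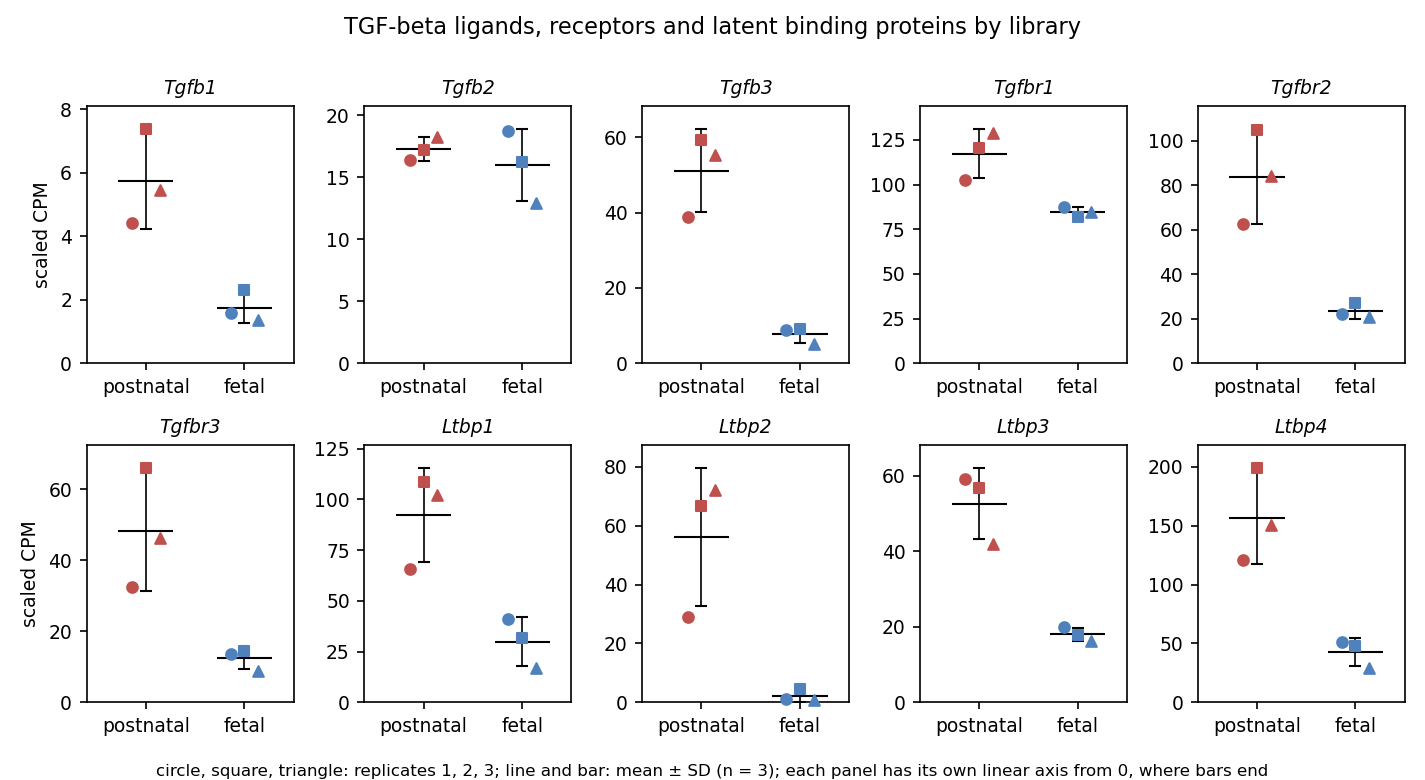
Scaled CPM of the TGF-beta ligand, receptor and latent binding protein genes in each library (points), with mean and SD of 3 libraries, postnatal left and fetal right, on linear axes from 0. Tgfb2 overlaps between the groups, whereas the other 9 genes are higher in every postnatal library than in any fetal one.

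Of the 5 BMP ligand genes tested, 3 rose and none fell. Bmp6, which in liver controls the iron hormone hepcidin, stood at 10.7, 18.5 and 18.8 in the postnatal and 1.96, 2.71 and 1.54 in the fetal libraries (2.45 ± 0.24; limma adjusted p = 1.44e-04). Bmp4 stood at 7.69, 14.7 and 15.6 in the postnatal and 5.62, 4.57 and 1.54 in the fetal libraries (1.53 ± 0.39; limma adjusted p = 0.0104). Bmp5 stood at 4.30, 6.16 and 6.32 in the postnatal and 1.17, 3.73 and 0.771 in the fetal libraries (1.31 ± 0.35; limma adjusted p = 0.0129). The groups did not overlap in any of the 3, but for Bmp5 the highest fetal value came close to the lowest postnatal one. Bmp2 (0.47, 95% interval -0.05 to 0.99) and Bmp3 (0.37, -0.12 to 0.85), a BMP that opposes the others in bone, did not pass. Bmp2 was called higher without postnatal replicate 1 (0.65; limma adjusted p = 0.0268) and without fetal replicate 1 (0.64; limma adjusted p = 0.0475).

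Of the 4 GDF genes tested 2 rose and 1 fell, and neither of the 2 activin and inhibin genes tested was called. Gdf15, a stress-induced circulating factor, stood at 5.01, 6.37 and 6.86 in the postnatal and 3.99, 3.27 and 2.13 in the fetal libraries (0.80 ± 0.21; limma adjusted p = 0.0111). Gdf1, known from left-right patterning of the embryo, stood at 4.96, 4.68 and 5.02 in the postnatal and 2.76, 2.54 and 2.77 in the fetal libraries (0.67 ± 0.13; limma adjusted p = 0.00267). Both groups were tight for Gdf1, but Gdf1 overlaps Cers1 and Upf1, and Gdf15 overlaps Lrrc25, in the RefSeq annotation, and reads of overlapping genes may not be separable. Both calls ended with libraries scaled to plain read totals. Gdf6, known from joint and skull development, stood at 1.67, 2.20 and 3.11 in the postnatal and 3.44, 5.15 and 3.95 in the fetal libraries (-0.65 ± 0.21; limma adjusted p = 0.0267). That call ended on leaving out any of postnatal replicates 1 and 2 and fetal replicates 2 and 3, with adjusted p by limma of 0.0609, 0.0713, 0.0928 and 0.0612. It also ended without both fetal replicate 2 and postnatal replicate 1, and with the 20 highest genes left out of the scaling. Gdf11, which in mouse embryos limits the number of endocrine progenitors, did not pass (-0.31, 95% interval -0.78 to 0.16). The activin subunit gene Inhba stood at 1.57, 3.44 and 2.60 in the postnatal and 2.18, 0.605 and 0.154 in the fetal libraries (0.93, 95% interval 0.05 to 1.81; limma adjusted p = 0.0617). It was called higher without fetal replicate 1 (1.34; limma adjusted p = 0.00802) and without postnatal replicate 1 (1.15; limma adjusted p = 0.0332). The inhibin alpha gene Inha did not pass (-0.20, -0.51 to 0.10).

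Of the 9 secreted antagonist and follistatin family genes tested, 7 rose and Fstl3 fell. The Grem1 product, gremlin, binds BMPs outside the cell. Grem1 stood at 3.44, 5.30 and 5.57 in the postnatal and 0.860, 0.218 and 0.216 in the fetal libraries (2.02 ± 0.24, limma adjusted p = 2.85e-04). With no fetal value of at least 1, Grem1 entered the test through the postnatal libraries alone, so its call carries that limit. Its fold depended on the pseudocount, at 3.38 with 0.1 and 0.84 with 5, and was called with both. Follistatin-like 3, which binds activin as follistatin does, went the other way. Fstl3 stood at 10.2, 8.23 and 6.97 in the postnatal and 30.8, 28.5 and 33.7 in the fetal libraries (-1.77 ± 0.15; limma adjusted p = 7.88e-05). Its groups lay far apart, and it fell under all 20 alternatives. Fst, the follistatin gene itself, rose too, and stood at 1.77, 3.65 and 3.21 in the postnatal and 1.32, 0.169 and 0.0308 in the fetal libraries, the last a single read (1.43 ± 0.34; limma adjusted p = 0.00731). With pseudocounts of 0.1 and 5 its log2 fold change was 2.95 and 0.52, called with both. The stromal glycoprotein gene Fstl1 rose by 1.24 ± 0.20, Fstl4 by 1.24 ± 0.18 and Fstl5 by 0.99 ± 0.22. The Fstl5 call ended with libraries scaled to plain read totals. Chrd, encoding the BMP-binding protein chordin, rose by 0.71 ± 0.20, a call that ended with that scaling, without postnatal replicate 3 (limma adjusted p = 0.0602) and without fetal replicate 3 (limma adjusted p = 0.0557). Its relative Chrdl1 did not pass (-0.32, 95% interval -0.76 to 0.13).

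**Figure D4:**
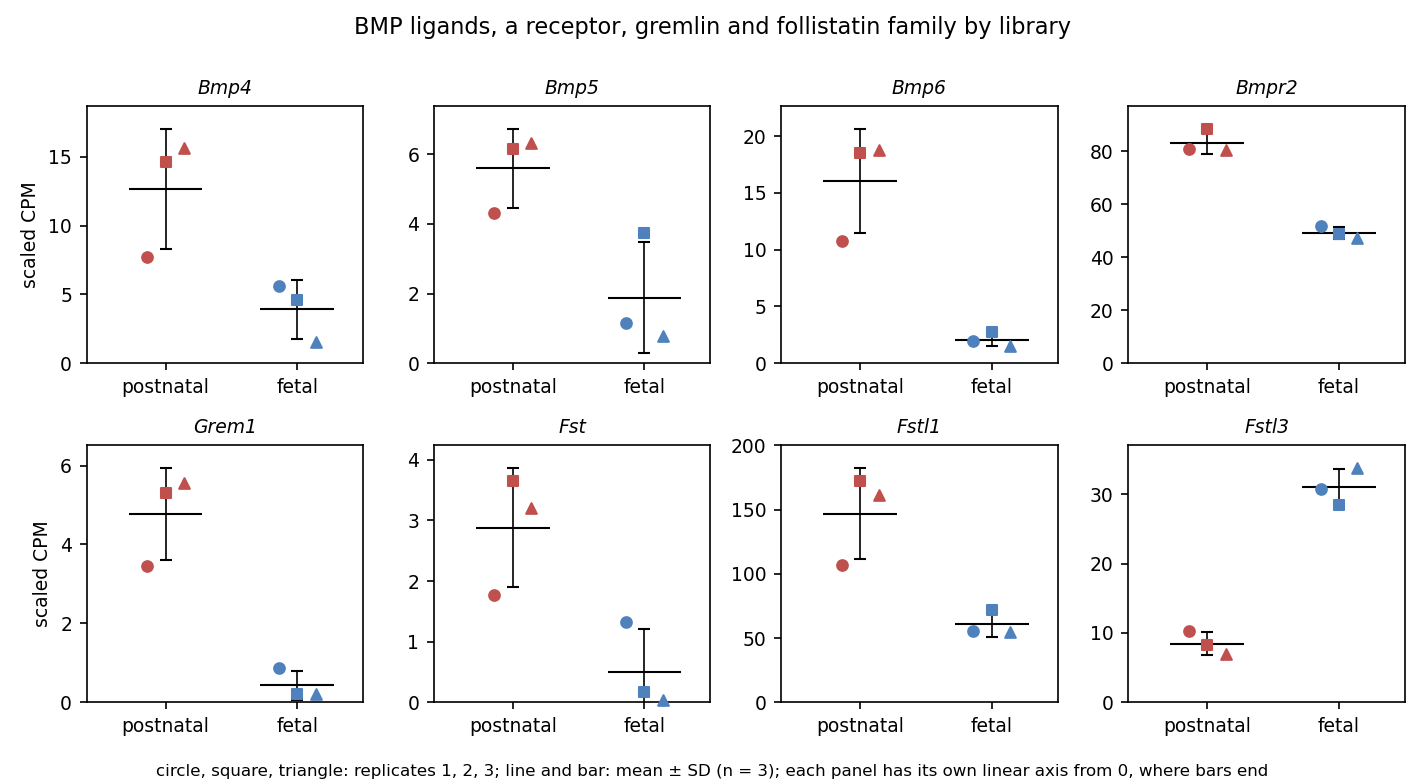
Scaled CPM of 3 BMP ligand genes, Bmpr2, Grem1 and 3 follistatin family genes in each library (points), with mean and SD of 3 libraries, postnatal left and fetal right, on linear axes from 0. Fstl3 is the gene of these 8 that is lower in the postnatal libraries.

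The pattern also takes 2 genes named after BMPs that encode no ligand of the family. Bmp2k encodes a protein kinase and rose (26.6, 35.5 and 31.3 in the postnatal against 20.9, 22.9 and 19.2 in the fetal libraries; 0.54 ± 0.13; limma adjusted p = 0.00859). Its call ended with libraries scaled to plain read totals, and it overlaps Paqr3 in the RefSeq annotation. Bmp1, a protease that trims procollagen and releases growth factors, did not pass (0.21, 95% interval -0.12 to 0.53), and was called higher without postnatal replicate 1 (0.33; limma adjusted p = 0.0392).

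The remaining 13 genes fell below the filter and were not tested: Bmp8a, Bmp8b, Bmp10, Bmp15, Chrdl2, Gdf3, Gdf5, Gdf7, Gdf9, Inhbc, Inhbe, Nog and Tgfbr3l. Of these, 2 were higher in every postnatal library than in any fetal one. Bmp15, best known as an oocyte factor, had 11, 28 and 26 reads in the postnatal and 0, 2 and 1 reads in the fetal libraries. After adjustment for depth its summed reads gave a ratio of 29.5, with an exact 95% counting interval of 9.66 to 147. Chrdl2, a chordin relative, had 20, 16 and 12 reads in the postnatal and 1, 0 and 0 in the fetal libraries, a ratio of 65.4 with a counting interval of 11.2 to 2634. These intervals cover counting error only. Among 4020 genes below the filter with a read, 18.2% were likewise higher in all postnatal libraries and 10.1% lower. Gdf5 was lower in all postnatal libraries, with 0, 0 and 1 reads against 2 in each fetal library, which is under 3 reads throughout. Nog, the noggin gene, had 1, 4 and 6 reads in the postnatal and 14, 9 and 4 in the fetal libraries. Bmp10 and Inhbe were read mainly in fetal replicate 2. Bmp10 had 2, 2 and 1 reads in the postnatal and 2, 31 and 0 in the fetal libraries, and Inhbe, a liver-expressed subunit, had 0, 2 and 0 against 1, 20 and 0. The 7 hepatocyte markers summed to 78.9 to 117 in the postnatal libraries. Their sum was 6658 for fetal replicate 2 but 203 for replicate 1 and 270 for replicate 3; its part in these reads was not tested.

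The 26 genes that rose tended to share an order of libraries. Within the postnatal group, replicate 1 was lowest for 21 of the 26, or 80.8%, and for 67.1% of all 3874 genes called higher. Within the fetal group, replicate 3 was lowest for 22 of the 26, or 84.6%, and for 59.0% of all genes called higher. Of the 10 summed marker lists, 5 were lowest in the same 2 libraries: mesenchymal, endocrine, macrophage, erythroid and Schwann. The summed acinar markers were highest in postnatal replicate 1, at 34.7% of its reads. That library is also the one whose age field says week 2, the youngest of the group. The part of labelled age or of acinar share in this order was not tested. The groups did not overlap for 33 of the 51 genes tested, 26 higher and 7 lower; of all genes tested they did not overlap for 70%, 33.1% higher and 36.9% lower.

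**Figure D5:**
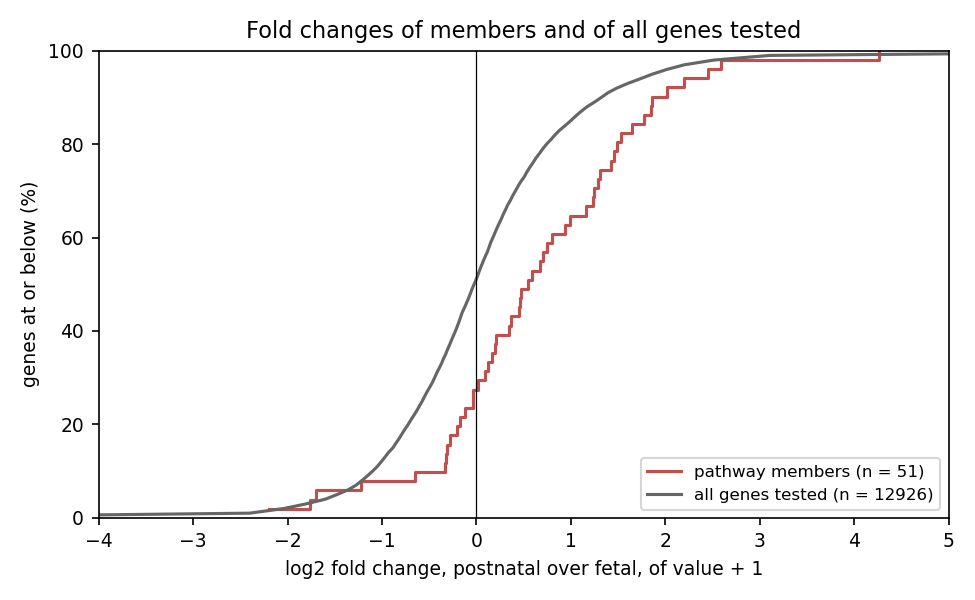
Cumulative share of genes (y axis, %) at or below each log2 fold change of value + 1, postnatal over fetal (x axis), for the 51 pathway genes tested (red) and all 12926 genes tested (grey). The red curve lies to the right of the grey one over its middle range, with a median of 0.54 against -0.03, and the curves meet at both ends.

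Other genes of the pathway were taken from a list by role, which the symbol pattern does not match. Of 74 in the table, 59 were tested, 30 rose and 9 fell, or 50.8% and 15.3%, beside 30% and 33.1% of all genes tested. Among those that rose, Vwc2 reached 1 scaled CPM in no fetal library, and Tmeff2, Msx1 and Cdkn2b in 1 each. These genes passed the filter only with their postnatal libraries. Of 9 activation and matrix genes tested, 7 rose and none fell. Tll1, a protease that cleaves chordin, rose most among them, to 15.8, 28.7 and 29.2 in the postnatal libraries against 4.54, 4.02 and 2.50 in the fetal ones (2.42 ± 0.27; limma adjusted p = 2.37e-04). Of 13 transcriptional targets tested, 7 rose and 1 fell. Tagln, a smooth muscle gene that TGF-beta induces and that is also a mesenchymal marker here, rose by 2.60 ± 0.52. Col1a1, another of these targets, and the antagonist gene Dcn also rose and are mesenchymal markers here too. Among 21 Smad cofactors and ubiquitin ligases, 8 rose and 5 fell; the corepressor gene Tgif2 stood at 22.2, 18.3 and 15.5 in the postnatal and 42.9, 40.1 and 47.4 in the fetal libraries (-1.19 ± 0.14). Of 9 further secreted antagonists 5 rose and 2 fell, Tmeff1 (-1.43 ± 0.14) and Kcp (-0.83 ± 0.15), which encodes a chordin-like protein. Of 6 co-receptors and pseudoreceptors 3 rose and 1 fell, and the ligand gene Lefty1 did not pass (0.60, 95% interval -0.12 to 1.32). With plain read totals, 17 of the 59 rose, and with the 20 highest genes left out of the scaling 4 fell.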

How the data were processed

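Libraries were made from total RNA with a stranded kit that depletes ribosomal RNA, per the labels' protocols. TopHat2 2.0.8b and edgeR 3.30.3 are named without roles, per the submitters' processing notes; no source used here names the genome build, annotation, counter or strand setting. The authors deposited a normalized signal per gene without a named unit. In all libraries 100% of the values were whole reads times 1 constant, within 0.001 reads, and the implied library sizes differ from the recovered reads by TMM factors of 0.677 to 1.25, so the signal is called scaled CPM. A row without a gene name, with 1 to 9 reads, was left out of tests.

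Samples were grouped by title. The main test was limma 3.58.1 (R 4.3.3; trend, group only, two-sided) on log2 of the value plus 1. Members and lists were chosen with earlier results of these data known. Values per library are given for the 3 largest called changes of each role, the Id genes, inhibitory Smads, TGF-beta ligands and genes below the filter whose groups do not overlap; those of Inhba, Smad2, Fst, Nog, Bmp10 and Inhbe were added after values were seen. For the other pathway genes the 3 largest changes each way are named. Lefty1 was added, as were Vwc2, Tmeff2, Msx1 and Cdkn2b for how they passed the filter. Col1a1 and Dcn were added because they are also mesenchymal markers. A few items that these rules would name are not reported here. Alternatives were 3 pseudocounts, 2 filters, 3 scalings, a robust trend, the replicate block, the labelled week, left-out libraries, and count tests of the recovered reads with DESeq2 1.42.0 and with edgeR 4.0.16. The test was tried on simulated data first. RefSeq GRCr8 tables gave promoters and overlaps; all 64 symbols matched.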

Additional observations from a re-analysis of the deposited data

How the results depend on the processing

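Of the 31 calls, all 31 kept their direction and 22 were also called under each of the 20 alternatives that tested them. Members called higher ranged from 25 to 30 over the left-out libraries, and members called lower from 4 to 5; all genes called ranged from 3252 to 4005 higher and from 3634 to 4470 lower. The members' median log2 fold change was 0.76 and 0.35 with pseudocounts of 0.1 and 5, 0.35 without a filter, 0.40 with the stricter filter, 0.26 with plain read totals, 0.77 with the 20 highest genes left out of the scaling, 0.80 with edgeR and 0.80 with DESeq2, and 0.48 to 0.65 over the left-out libraries. With pseudocounts of 0.1 and 5, Tgfb1 was 1.66 and 0.66, Bmp5 1.80 and 0.64, Bmp6 2.88 and 1.55, and Inhba 1.76 and 0.34. With plain read totals, 1780 of all genes were higher, 17 other pathway genes were higher, and 5 role groups had more members higher than lower, against 8 as deposited; with the 20 highest genes left out, 4 other pathway genes were lower. The cause was not tested.

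Signs changed only for members that were not called. With plain read totals they became -0.33 for Acvr2a, -0.14 for Bmp1, -0.25 for Smad1, -0.18 for Smad5, -0.12 for Smad6 and -0.21 for Tgfb2. With the 20 highest genes left out they became 0.20 for Acvr1b, 0.042 for Acvr1c, 0.0087 for Inha, 0.11 for Smad2 and 0.10 for Smad9. Over the left-out libraries Smad9 ranged from -0.12 to 0.027, Acvr1b from -0.089 to 0.029, Tgfb2 from -0.014 to 0.23 and Acvr2a from -0.0097 to 0.046. Acvr1b was 0.0056 with edgeR and 0.0065 with DESeq2.

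Replicate numbers did not pair the samples: deviations of same-numbered libraries correlated at -0.207, 0.102 and -0.253 across genes, and no library correlated best with its own number. With the replicate block 25 members were higher and 5 lower, with Chrd no longer called (limma adjusted p = 0.0504), and 3563 of all genes were higher and 3863 lower.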

Other observations

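Some genes that act with this pathway in other tissues were below the filter and summed to more fetal than postnatal reads, in part through a single fetal library. Hamp, the hepcidin gene that BMP6 controls in liver, stood at 0, 0.103 and 0.0683 scaled CPM in the postnatal and 0.921, 1.31 and 0.678 in the fetal libraries, with 5 and 106 reads in all. Bmp6 itself was higher in the postnatal libraries. Hjv, encoding the hepcidin-related BMP co-receptor hemojuvelin, stood at 0.152, 0.103 and 0.102 in the postnatal libraries and at 0, 0.799 and 0 in the fetal ones, so that its fetal reads all came from replicate 2. Amh, encoding anti-Muellerian hormone of the fetal testis, stood at 0.101, 0.206 and 0.205 in the postnatal libraries, and at 2.76, 0.145 and 0.123 in fetal replicates 1, 2 and 3. Hamp, Hjv and Amh were picked after their values were seen. Among other list genes below the filter, Dlx5, Mstn and Tdgf1 were higher in every postnatal library than in any fetal one. Amhr2 was lower in every postnatal library.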
